A study of Mus musculus with 12 samples.

Results

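The enzymes described here make, recycle or spend reducing power against reactive oxygen. They are Nnt, Sod1, Sod2, Cat, Gpx1, Prdx3, Txnrd2, Nqo1, Hmox1 and Gclc, and their transcripts were followed in mouse iWAT (inguinal white adipose tissue), fat that lies under the skin. The 10 genes were chosen by symbol, and 11 of the 33200 identifiers in the gene count table carried those symbols, because Nnt has 2. The libraries were 3 biological replicates of mice with a global CRISPR/Cas-made knockout of Nrep (genotype Nrep-/-, here KO) and 3 of wild-type C57BL/6 mice (WT), all on a maintenance diet and all 16 weeks old. RNA was selected by its poly(A) tail, and the labels do not say whether a replicate is 1 animal. The deletion is in every cell of the animal, and the sources used here give neither the C57BL/6 substrain, nor the strain background or number of the KO lines. Another 6 samples, from liver, are not used here. The question is how these transcripts differ between KO and WT fat.

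Mitochondria leak electrons that turn oxygen into superoxide. Superoxide dismutases convert it to hydrogen peroxide, SOD2 in the mitochondrial matrix and SOD1 mainly in the cytosol. Catalase, glutathione peroxidases and peroxiredoxins then reduce the peroxide to water, and the thiol systems among them draw their electrons from NADPH, which the transhydrogenase NNT supplies inside mitochondria. A further layer is induced by the transcription factor NRF2, whose known targets include Nqo1, Hmox1 and Gclc.

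Library totals lay between 18973117 and 19783453 estimated counts in KO and between 17970451 and 20369345 in WT. Nrep, the targeted gene, had 2, 2 and 5 counts in KO and 1404, 1640 and 1300 counts in WT, the direction its labels give. All 15 adipocyte markers were detected in each library, and their summed level was 21497 to 37789 CPM (estimated counts relative to library size, scaled by the trimmed mean of M-values, TMM) in KO and 16366 to 20495 CPM in WT. Skeletal muscle markers summed to 4418, 737.8 and 4111 CPM in KO replicates 1, 2 and 3 and to 14.7 to 21.4 CPM in WT, where 2 of 15 markers in WT replicate 2 and 1 in WT replicate 3 had no count; of 14 tested, 12 rose in edgeR. In tissue RNA, fewer cells of a type and less RNA per cell cannot be told apart.

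Nnt, Sod1, Sod2, Cat, Prdx3 and Txnrd2 had higher mean levels in KO fat and Hmox1 a lower one, but none of the 10 genes passed the test across all genes. In TMM-scaled CPM, the values of Sod1, Sod2, Prdx3, Txnrd2 and Nnt in the 3 KO libraries all lay above those in the 3 WT libraries. For Sod2 this did not hold relative to library totals alone. Hmox1 lay below in every KO library. Gpx1, Nqo1 and Gclc overlapped between genotypes with log2 fold changes close to 0, and so did Cat, whose log2 fold change was 0.71.

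In edgeR's quasi-likelihood test 0 of the 10 genes reached an adjusted p of 0.05, where 1.03% of the 16656 tested identifiers did. At an unadjusted p of 0.05 the test counted 6 higher and 1 lower, against 12.8% and 9.79% of all tested identifiers. DESeq2 called 6 of the 10, where it called 10.9% of all identifiers. Of these, 5 were higher and 1 lower, against 7.34% and 3.6% of all identifiers, and limma-voom called 0 (0.0961% of all). In TMM-scaled CPM, groups did not overlap for 6 of the 10 genes, 5 with all KO libraries higher and 1 with all KO libraries lower. Over all tested identifiers 15.2% were higher in every KO library and 13.1% lower in every KO library. The median log2 fold change of the 10 genes was 0.52, and that of all tested identifiers was -0.06.

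**Figure D1:**
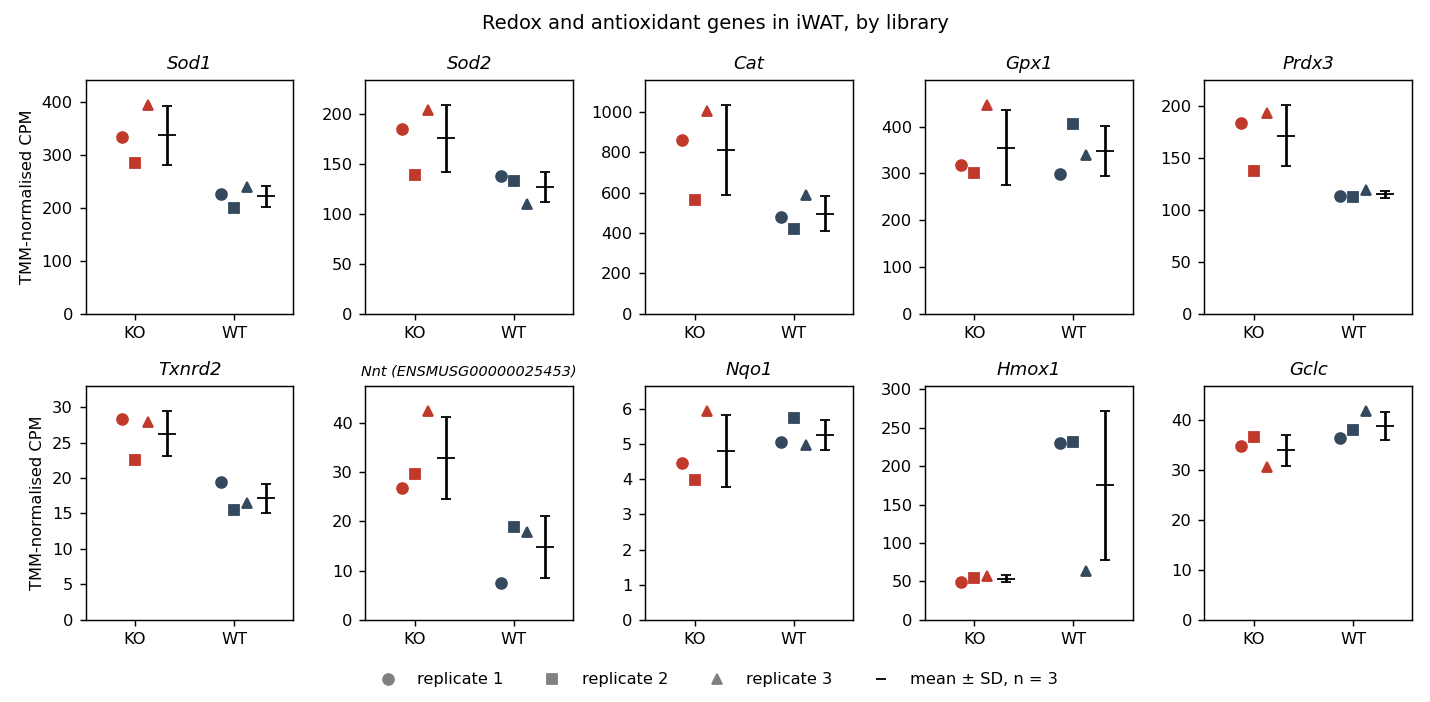
Each panel plots TMM-normalised CPM of 1 gene (vertical axis, starting at 0) for the 3 KO libraries (left, red) and the 3 WT libraries (right, dark); symbols mark the replicate number and bars show the mean ± SD, n = 3. Sod1, Prdx3 and Txnrd2 separate by genotype with KO replicate 2 nearest to WT, and Hmox1 is high in WT replicates 1 and 2 only.

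Both dismutases had higher values in KO. Sod1, the copper-zinc enzyme, had 332.8, 283.4 and 394.1 CPM in KO and 225.5, 199.4 and 238.6 CPM in WT. Every KO library was above every WT library, with KO replicate 2 the lowest of its group. Sod1 averaged 336.8 ± 55.4 CPM in KO and 221.2 ± 19.96 CPM in WT (SD, n = 3 each), and its log2 fold change was 0.61 (SE 0.166, edgeR adjusted p = 0.0923). Sod2, the manganese enzyme of the matrix, had 185.0, 138.6 and 203.4 CPM in KO and 138.2, 133.1 and 109.7 CPM in WT. KO replicate 2 and WT replicate 1 were nearly level, so the separation of the groups rested on a difference of less than 1 CPM. Relative to library totals alone the order of these 2 libraries reversed, and the groups overlapped. KO replicate 2 had 2814.37 of 19668020 estimated counts, and WT replicate 1 had 2597.27 of 17970451. The Sod2 log2 fold change was 0.47 (SE 0.177, edgeR adjusted p = 0.173). Outside these genes, Sod3, the secreted dismutase, averaged 145.9 ± 45.8 CPM in KO and 119.2 ± 8.98 CPM in WT, and the groups overlapped. Ccs, which loads copper into SOD1 and is named here after its values were seen, averaged 24.3 ± 1.13 and 21.6 ± 0.758 CPM in KO and WT (edgeR adjusted p = 0.381).

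Promoter sequences of 7 of the 10 genes were found in RefSeq's table for GRCm38.p6. Shown are the 250 bases upstream of the start of 4 genes whose KO libraries were all higher in TMM-scaled CPM. They are the dismutases, and a peroxiredoxin and thioredoxin reductase that work as a pair in the matrix. Sod1 lies at chr16:90220512-90220761 (plus strand), Sod2 at chr17:13007589-13007838 (plus), Prdx3 at chr19:60874539-60874788 (minus) and Txnrd2 at chr16:18426167-18426416 (plus). Capitals mark matches to the motifs searched, which here are Sp1 sites (GGGCGG) and, in Sod1, 1 core of the antioxidant response element, the NRF2 binding motif.
Sod1: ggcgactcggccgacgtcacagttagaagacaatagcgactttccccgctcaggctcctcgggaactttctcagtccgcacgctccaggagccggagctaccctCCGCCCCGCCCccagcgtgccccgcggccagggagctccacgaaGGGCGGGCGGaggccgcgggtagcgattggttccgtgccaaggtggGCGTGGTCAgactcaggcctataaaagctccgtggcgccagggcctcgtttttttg
Sod2: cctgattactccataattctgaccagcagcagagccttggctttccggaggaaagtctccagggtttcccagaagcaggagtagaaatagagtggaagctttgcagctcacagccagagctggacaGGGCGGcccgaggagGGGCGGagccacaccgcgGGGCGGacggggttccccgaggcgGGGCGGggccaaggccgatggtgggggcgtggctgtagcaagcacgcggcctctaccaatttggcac
Prdx3: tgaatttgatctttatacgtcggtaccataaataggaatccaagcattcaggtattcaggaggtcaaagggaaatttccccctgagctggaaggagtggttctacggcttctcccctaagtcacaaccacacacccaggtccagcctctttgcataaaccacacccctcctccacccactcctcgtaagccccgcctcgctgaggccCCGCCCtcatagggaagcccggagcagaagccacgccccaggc
Txnrd2: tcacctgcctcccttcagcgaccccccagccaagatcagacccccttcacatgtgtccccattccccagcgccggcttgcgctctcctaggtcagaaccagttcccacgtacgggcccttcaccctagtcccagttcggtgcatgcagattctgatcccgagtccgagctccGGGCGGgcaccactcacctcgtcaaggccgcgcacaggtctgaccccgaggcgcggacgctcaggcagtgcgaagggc
The antioxidant response element core was searched as TGACNNNGC, on both strands like the others. Its Sod1 match, GCGTGGTCA, is on the minus strand and starts at position -56 from the gene start. This was 1 match among the 7 genes, where 10.1% of 27025 RefSeq promoters of the same length held at least 1. Sp1 sites were in 6 of the 7, Gpx1 being without one, against 32.9% of all promoters. Bases G and C made up 53.2% to 66.4% of these 6 promoters and 42.0% of that of Gpx1. The median of all promoters was 52.0%. The part of base composition in the Sp1 matches was not tested. The motifs of NRF1, of ETS factors such as GABPA (CCGGAAG) and of forkhead factors (GTAAACA) had 0 matches in the 7 genes and matched 3.86%, 7.05% and 3.09% of all promoters. No 2 motifs overlapped in these windows, although neighbouring Sp1 matches in Sod1 share bases.

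Among the enzymes that remove hydrogen peroxide, Cat, Prdx3 and Txnrd2 had higher means in KO, and Gpx1 did not differ beyond the spread of its libraries. Cat encodes catalase, the peroxisomal enzyme that splits hydrogen peroxide. It had 862.1, 565.3 and 1005 CPM in KO and 477.9, 417.2 and 590.2 CPM in WT. KO replicate 2 lay below WT replicate 3, so the groups overlapped. The log2 fold change was 0.71 (SE 0.246, edgeR adjusted p = 0.146). Prdx3, the peroxiredoxin of the mitochondrial matrix, had 184.0, 137.8 and 193.0 CPM in KO and 113.6, 112.8 and 118.8 CPM in WT. The WT libraries lay close together and the spread was in KO. Prdx3 averaged 171.6 ± 29.6 CPM in KO and 115.1 ± 3.24 CPM in WT (SD, n = 3 each), and its log2 fold change was 0.58 (SE 0.154, edgeR adjusted p = 0.0882).

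Txnrd2, the mitochondrial thioredoxin reductase that keeps the PRDX3 cycle running, had 28.3, 22.6 and 27.9 CPM in KO and 19.4, 15.5 and 16.5 CPM in WT. The groups separated, and its log2 fold change of 0.62 (SE 0.148) had an edgeR adjusted p of 0.0732. Whether the counting used strand is not stated, so the Txnrd2 counts are uncertain. Txn2, the thioredoxin between these enzymes, is named here after its values were seen. It averaged 108.2 ± 13.4 CPM in KO and 82.0 ± 7.68 CPM in WT without overlap (log2 fold change 0.40, edgeR adjusted p = 0.148). Gpx1, a selenium-containing glutathione peroxidase of cytosol and mitochondria, had 316.9, 300.3 and 446.4 CPM in KO and 299.5, 404.4 and 339.6 CPM in WT. Its libraries were interleaved, and the log2 fold change was 0.03 (SE 0.202, edgeR adjusted p = 0.945). That sign turned to -0.12 when libraries were scaled by their totals alone.

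A list of 4 further glutathione peroxidases, all tested, gave 0 calls in edgeR. At an unadjusted p of 0.05, 2 were higher (12.8% of all identifiers), and DESeq2 called 2 higher (7.34% of all). Gpx4, which reduces lipid peroxides in membranes, averaged 542.7 ± 109 CPM in KO and 315.8 ± 32.8 CPM in WT (SD, n = 3 each). Every KO library was above every WT library (log2 fold change 0.78, edgeR adjusted p = 0.0739, DESeq2 adjusted p = 0.00149). Gpx3, the secreted plasma form, averaged 1157 ± 334 CPM in KO and 893.3 ± 161 CPM in WT, with overlap. Of 17 further peroxiredoxin, thioredoxin and glutaredoxin genes, edgeR called 0 (1.03% of all identifiers) and DESeq2 called 1 (10.9% of all). At an unadjusted p of 0.05, 3 were higher and 2 lower (12.8% and 9.79% of all identifiers). The median log2 fold change of the 17 genes was 0.14. These shares over all identifiers apply to every list in the text. Prdx1, the cytosolic peroxiredoxin, averaged 394.0 ± 36.3 CPM in KO and 395.1 ± 68.9 CPM in WT, closer than the spread of either group. Txnip, which binds and inhibits thioredoxin, averaged 2209 ± 460 CPM in KO and 1614 ± 298 CPM in WT (edgeR adjusted p = 0.282).

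Other peroxisomal genes also had higher values in KO. Of 13 tested peroxisome genes, 1 rose and 0 fell in edgeR, 7 passed in DESeq2, all 13 had positive log2 fold changes and the median was 0.62. Pex11a, which promotes peroxisome division, rose; it had 61.5, 43.9 and 61.9 CPM in KO and 28.9, 29.8 and 30.96 CPM in WT (log2 fold change 0.90, SE 0.153, edgeR adjusted p = 0.0468). Among the fits that left out 1 library, Pex11a passed without KO replicate 2 alone (adjusted p = 0.00118), and over all alternatives its adjusted p ran from 0.000105 to 0.217. The summed level of the 13 genes was 2264, 1528 and 2458 CPM in KO and 1424, 1262 and 1518 CPM in WT. In this sum and in Cat, KO replicate 2 was the lowest KO library and lay near WT replicate 3.

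**Figure D2:**
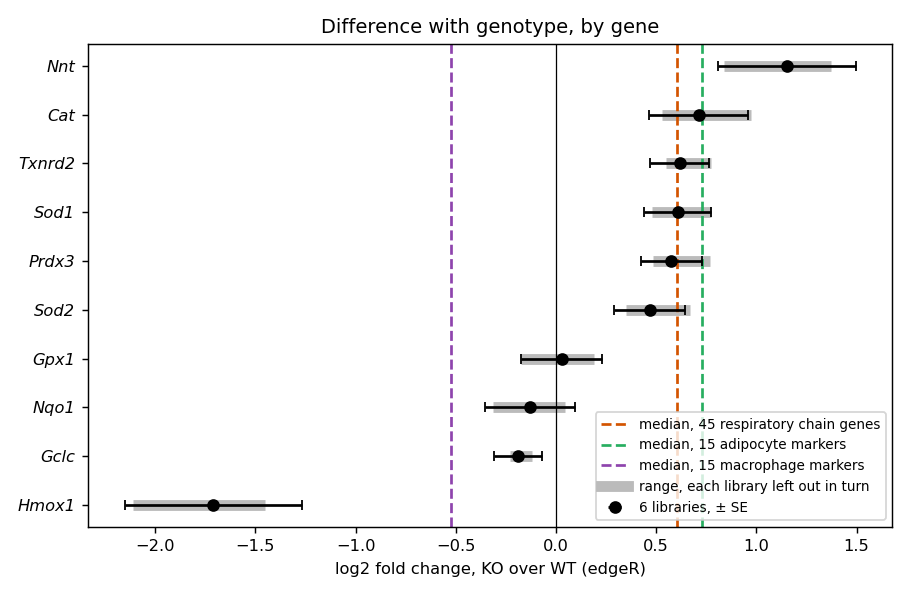
Points give the log2 fold change, KO over WT, of the 10 genes with ± 1 SE from edgeR on 6 libraries (3 per genotype), and grey bars the range when each library was left out in turn; dashed lines are the medians of respiratory chain genes, adipocyte markers and macrophage markers. Nnt, Cat, Txnrd2, Sod1, Prdx3 and Sod2 lie between 0.47 and 1.15, on either side of the respiratory chain median of 0.60, and Hmox1 lies at -1.71.

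Nuclear-encoded respiratory chain genes had higher values in the same libraries. Their log2 fold changes had a median of 0.60, close to those of Prdx3 (0.58), Txnrd2 (0.62) and Sod1 (0.61). Of 45 tested genes, 44 were positive, and edgeR called 0, with 44 higher at an unadjusted p of 0.05 and 41 higher in DESeq2. They summed to 12052, 9706 and 12893 CPM in KO and 8141, 7237 and 7623 CPM in WT. The 15 adipocyte markers had a median log2 fold change of 0.73, with 1 higher in edgeR (Slc2a4, the insulin-responsive glucose transporter) and 11 in DESeq2, and summed to 31664, 21497 and 37789 CPM in KO and 17892, 16366 and 20495 CPM in WT. KO replicate 2 was the lowest KO library in the adipocyte, muscle and respiratory chain sums, as it was in Sod1, Sod2, Cat, Prdx3 and Txnrd2. The part of the adipocyte, muscle and respiratory chain levels in the values of the redox enzymes was not tested. Red cells are rich in catalase, SOD1 and GPX1, and 7 red cell markers summed to 932.5, 965.4 and 1732 CPM in KO and 1528, 1360 and 1005 CPM in WT, and so overlapped between genotypes.

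Nnt, the transhydrogenase that makes NADPH in the inner mitochondrial membrane, had the largest positive log2 fold change of the 10 genes, and its size depended on how its 2 identifiers were treated. On GRCm38 (GENCODE M21) ENSMUSG00000025453 spans chr13:119335448-119408997 and ENSMUSG00000116207 chr13:119335528-119408952, both on the minus strand. ENSMUSG00000025453 had 465, 601 and 763 estimated counts in KO and 141.34, 406 and 374 in WT. ENSMUSG00000116207 had 0 in every library but WT replicate 1, where it had 160.66. In that library alone, 53.2% of the Nnt counts stood on the second identifier. Alone, the first identifier had 26.7, 29.6 and 42.4 CPM in KO and 7.52, 18.9 and 17.9 CPM in WT (log2 fold change 1.15, SE 0.345, edgeR adjusted p = 0.111).

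In GENCODE M21, the only coding transcript of ENSMUSG00000116207 (Nnt-206, 3339 bases, 17 exons) lies whole inside Nnt-202 of ENSMUSG00000025453 (3464 bases, 17 exons). Nnt-202 has 45 more bases before it and 80 more after it, and 0 of the words of 31 bases in Nnt-206 are absent from Nnt-202. A read from the shared 3339 bases therefore matches both identifiers in that annotation, which may not be the one the authors used. Summed over both, the counts were 465, 601 and 763 in KO and 302, 406 and 374 in WT. The summed level was 32.9 ± 8.36 CPM in KO and 17.6 ± 1.45 CPM in WT (SD, n = 3 each). The genotypes still did not overlap, at 26.7, 29.6 and 42.4 CPM in KO and 16.1, 18.9 and 17.9 CPM in WT. Summing lowered the log2 fold change to 0.90 (SE 0.188) and gave an edgeR adjusted p of 0.0623. Further fits of the summed counts were chosen after seeing the data. DESeq2 gave an adjusted p of 0.0015 and limma-voom one of 0.0867, and edgeR gave 0.0117 without KO replicate 2 and 0.0928 to 0.234 without any other single library. C57BL/6J mice are known to carry a deletion inside Nnt that C57BL/6N mice lack. The table gives counts per gene and not per exon, so that deletion could not be read from it, and whether the genotypes share a substrain was not tested.

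**Figure D3:**
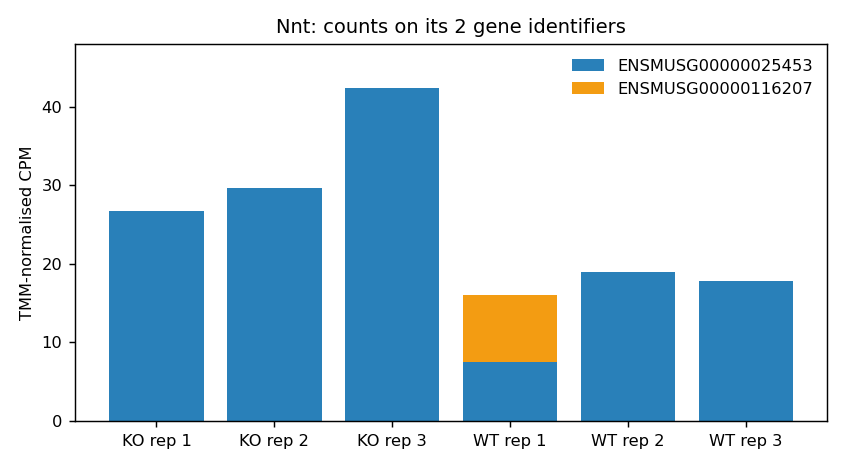
Stacked bars give TMM-normalised CPM on the 2 Nnt identifiers in each of the 3 KO libraries (left) and 3 WT libraries (right), with 1 library per bar and no error bar. Only WT replicate 1 has counts on the second identifier, and with both stacked the WT libraries lie between 16.1 and 18.9 CPM, below all KO libraries.

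Other suppliers of NADPH to mitochondria gave 0 edgeR calls among 9 tested genes, and a median log2 fold change of 0.22. At an unadjusted p of 0.05, 0 were higher and 2 lower (12.8% and 9.79% of all identifiers). DESeq2 called 1 lower (3.6% of all). Glud1, glutamate dehydrogenase, averaged 298.9 ± 28.6 CPM in KO and 294.7 ± 11.2 CPM in WT. Slc25a51, the mitochondrial NAD carrier, averaged 217.0 ± 44.6 CPM in KO and 167.0 ± 18.01 CPM in WT, with overlap. In the cytosol 1 of 7 tested NADPH suppliers rose and 0 fell. Me1, malic enzyme, had 2214, 1247 and 1488 CPM in KO and 537.7, 534.1 and 302.6 CPM in WT, a 3.601-fold difference (log2 fold change 1.85, SE 0.308, edgeR adjusted p = 0.0466). Among fits that left out 1 library Me1 passed without KO replicate 2 alone (adjusted p = 0.00496), and over all alternatives its adjusted p ran from 5.41e-08 to 0.212.

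The NRF2-responsive Nqo1 and Gclc overlapped between genotypes, and Hmox1 did not. Nqo1, a quinone reductase, was low, with 78, 81 and 107 counts in KO and 95, 123 and 104 in WT, or 4.80 ± 1.02 CPM in KO and 5.25 ± 0.422 CPM in WT. The groups overlapped (log2 fold change -0.13, SE 0.223, edgeR adjusted p = 0.738), and without KO replicate 2 the value was 0.05. Gclc, the catalytic subunit of the enzyme that starts glutathione synthesis, had 34.8, 36.6 and 30.6 CPM in KO and 36.3, 38.0 and 41.8 CPM in WT. KO replicate 2 stood just above WT replicate 1, and the log2 fold change was -0.19 (SE 0.120, edgeR adjusted p = 0.372).

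Hmox1, heme oxygenase 1, which breaks down haem and is abundant in macrophages, had the largest difference of the 10 genes in either direction. It had 48.6, 54.2 and 57.4 CPM in KO and 230.0, 232.1 and 63.0 CPM in WT. The KO libraries were tight and all lower, while WT replicate 3 sat near them and far from the other WT libraries. The means were 53.4 ± 4.44 CPM in KO and 175.0 ± 97.0 CPM in WT (SD, n = 3 each). The Hmox1 log2 fold change was -1.71 (SE 0.442, edgeR adjusted p = 0.0855, DESeq2 adjusted p = 0.00152). Without WT replicate 3 the log2 fold change was -2.11 and the edgeR adjusted p was 0.00292.

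The summed level of macrophage markers was lower in KO, and the markers differed in how far WT replicate 3 lay from the other WT libraries. The sum was 2457, 2635 and 2569 CPM in KO and 3914, 4736 and 3395 CPM in WT, and without Lyz2, the most abundant marker, it was 1359, 1162 and 1672 CPM in KO and 1919, 2381 and 1808 CPM in WT. Of 15 tested macrophage markers, edgeR called 0, and DESeq2 called 5 lower (3.6% of all identifiers). At an unadjusted p of 0.05, 0 were higher and 11 lower (12.8% and 9.79% of all identifiers). The median log2 fold change was -0.52, and no marker was at 0 in any library. Lyz2, a lysozyme of myeloid cells, had 1099, 1472 and 896.3 CPM in KO and 1995, 2354 and 1587 CPM in WT. Csf1r, the receptor for macrophage colony-stimulating factor, had 198.8, 196.7 and 219.6 CPM in KO and 240.8, 284.2 and 241.2 CPM in WT, with WT replicate 3 level with WT replicate 1. WT replicate 3 was the lowest WT library for 9 of the 15 markers and WT replicate 1 for the other 6. Hmox1 in WT replicate 3 stood at 0.273 of the mean of WT replicates 1 and 2, while the markers had a median of 0.886 and a range of 0.155 to 1.28, and 1 of them, Fcgr1, lay below Hmox1. The 3 markers described next were named after their values were seen, the first and second for their low ratios (0.465 and 0.155) and the third for its high one (1.28). Cd68, a lysosomal protein of macrophages, had 47.5, 53.6 and 49.4 CPM in KO and 134.6, 182.3 and 73.7 CPM in WT. Fcgr1, an Fc receptor, had 7.63, 7.34 and 7.89 CPM in KO and 88.6, 113.2 and 15.7 CPM in WT. Cd163, the haemoglobin scavenger receptor of resident macrophages, overlapped at 166.1, 76.2 and 248.7 CPM in KO and 126.7, 160.4 and 184.3 CPM in WT. Neutrophil markers summed to 47.5, 69.7 and 48.4 CPM in KO and 197.4, 295.4 and 74.6 CPM in WT, lowest of WT in replicate 3. Of 9 tested, 1 fell in edgeR (Retnlg) and 6 were lower in DESeq2 (3.6% of all identifiers). The part of myeloid RNA in the Hmox1 difference was not tested.

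**Figure D4:**
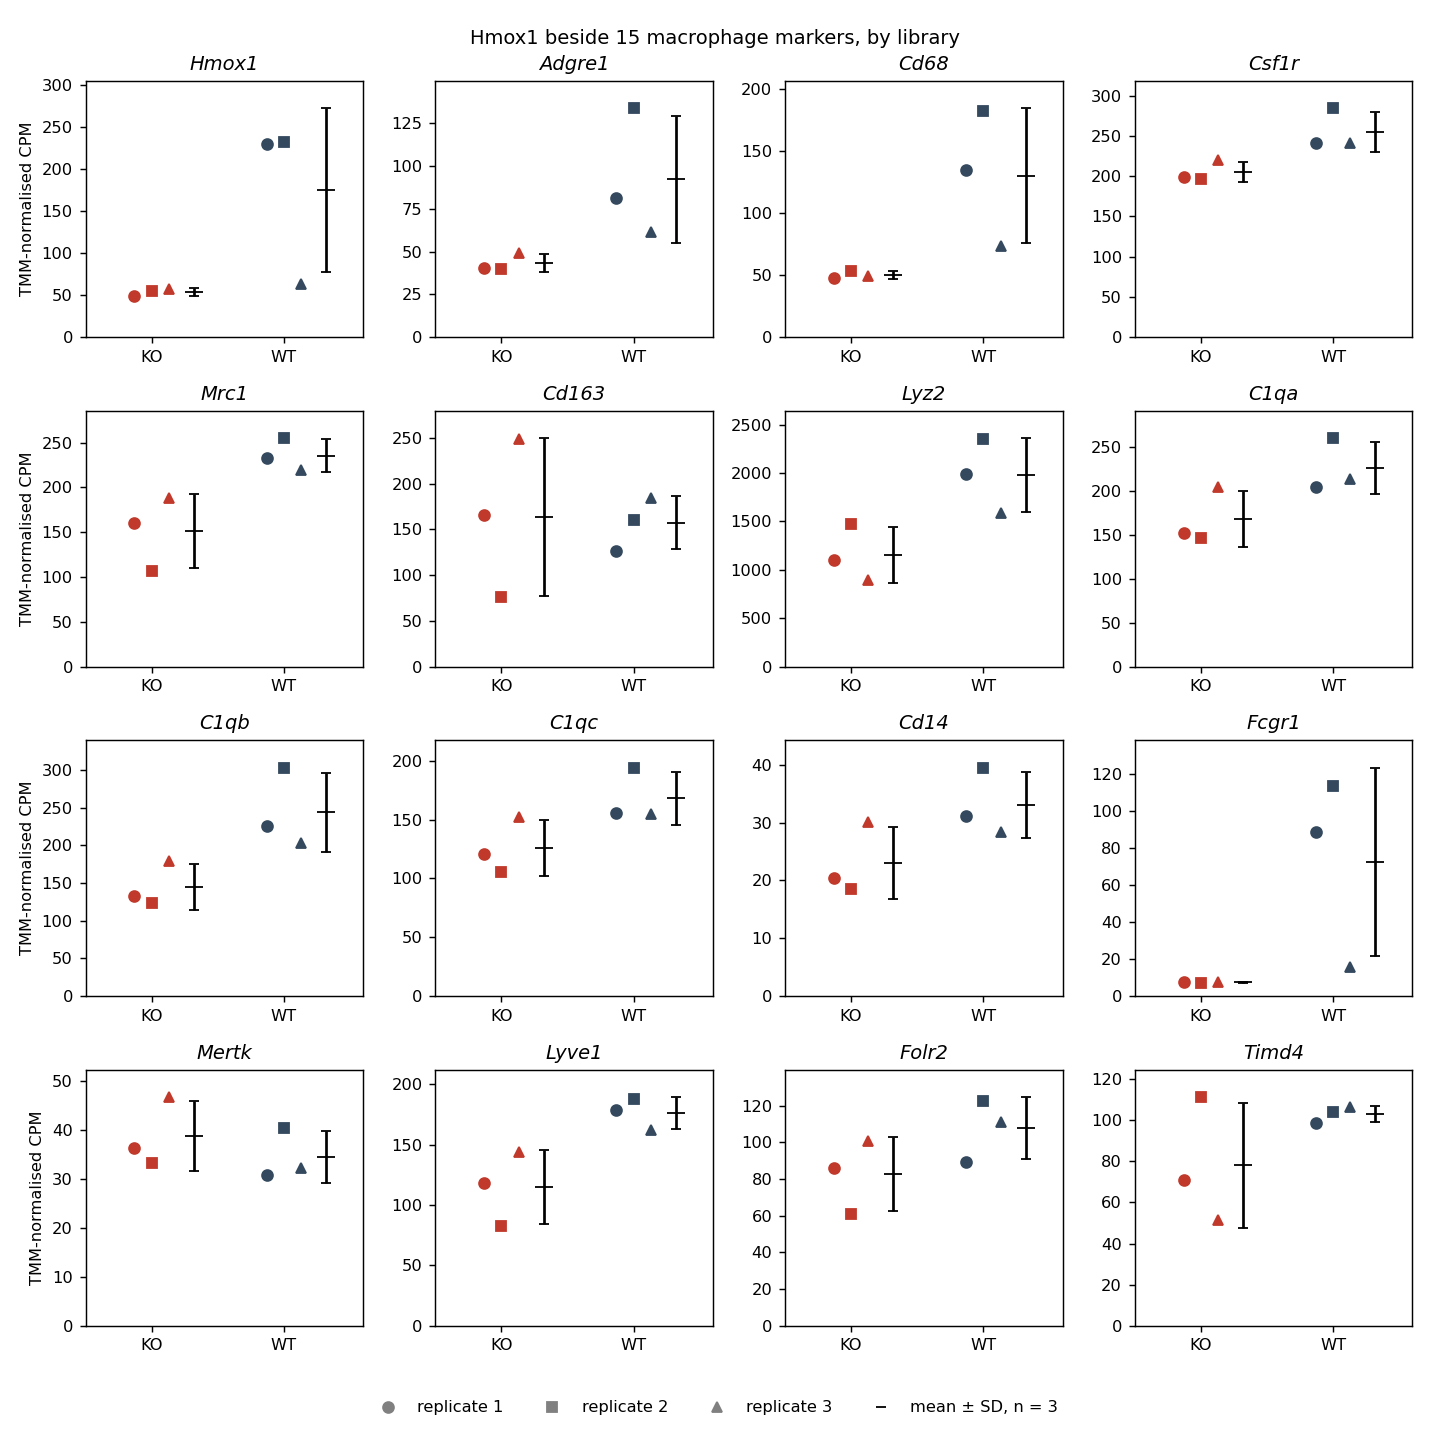
TMM-normalised CPM (vertical axes, from 0) of Hmox1 and of all 15 macrophage markers in the 3 KO libraries (left, red) and 3 WT libraries (right, dark), with replicate numbers as symbols and mean ± SD, n = 3. WT replicate 3 is far below the other WT libraries in Hmox1 and Fcgr1 and lowest of WT in 9 of the 15 markers; in the other 6, Csf1r among them, WT replicate 1 is lowest.

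Of 23 further NRF2 targets, 2 rose and 0 fell in edgeR (1.03% of all identifiers passed). In DESeq2, 7 were higher and 1 lower (7.34% and 3.6% of all identifiers). The median log2 fold change was 0.05, with 12 positive and 11 negative. The genes that rose were Me1 and Tkt, a transketolase of the pentose phosphate pathway, with 1606 ± 256 CPM in KO and 658.3 ± 119 CPM in WT (2.44-fold, edgeR adjusted p = 0.0461). Tkt too passed, of the fits that left out 1 library, without KO replicate 2 alone (adjusted p = 0.00388), and over all alternatives its adjusted p ran from 4.19e-08 to 0.216. Both are also known as enzymes of sugar and fat metabolism. Txnrd1, Srxn1 and Gclm, named after their values were seen, had log2 fold changes of -0.13, -0.26 and 0.27 with overlap between genotypes. Slc7a11, the cystine importer, named after its values were seen, had 7.92, 6.70 and 3.61 CPM in KO and 12.7, 19.0 and 11.6 CPM in WT without overlap (log2 fold change -1.25, edgeR adjusted p = 0.0808). Of 10 NRF2 regulators edgeR called 0, and DESeq2 called 1 lower (3.6% of all identifiers). At an unadjusted p of 0.05, 1 was higher and 1 lower (12.8% and 9.79% of all identifiers). Nfe2l2, which encodes NRF2, averaged 101.4 ± 11.1 CPM in KO and 110.9 ± 3.67 CPM in WT. Bach1, a repressor of Hmox1, averaged 42.3 ± 4.88 CPM in KO and 65.0 ± 9.85 CPM in WT without overlap (log2 fold change -0.62, edgeR adjusted p = 0.0742); these 2 regulators were named after their values were seen. By the rule of highest level, Nfe2l1 and Sqstm1 averaged 416.7 ± 69.7 and 297.8 ± 23.8 CPM in KO, against 313.2 ± 10.3 and 274.3 ± 32.1 CPM in WT.

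Genes of glutathione synthesis, recycling and transfer had values on both sides. Of 18 tested, edgeR called 0, with 8 higher and 3 lower at an unadjusted p of 0.05 (12.8% and 9.79% of all identifiers). DESeq2 called 6 higher and 1 lower (7.34% and 3.6% of all identifiers). Gstm1, a cytosolic glutathione transferase, averaged 247.0 ± 50.6 CPM in KO and 159.0 ± 29.2 CPM in WT without overlap (edgeR adjusted p = 0.123). Mgst1, a microsomal transferase, averaged 689.0 ± 214 CPM in KO and 481.4 ± 47.8 CPM in WT. Mgst3 and Slc25a39, a transferase and the mitochondrial glutathione importer, were named after their values were seen. They had log2 fold changes of 1.05 and 0.76, edgeR adjusted p-values of 0.0565 and 0.0578, and no overlap between genotypes. Gsr, which recycles oxidised glutathione and was also named after its values were seen, had 46.3, 48.6 and 46.6 CPM in KO and 78.3, 83.0 and 48.6 CPM in WT, lowest of WT in replicate 3.

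Enzymes that make superoxide had lower values in KO. Of 8 tested, edgeR called 0, with 0 higher and 5 lower at an unadjusted p of 0.05 (12.8% and 9.79% of all identifiers). DESeq2 called 4 lower (3.6% of all), and the median log2 fold change was -0.68. Cybb, a subunit of the phagocyte NADPH oxidase named after its values were seen, averaged 82.3 ± 25.7 CPM in KO and 162.6 ± 44.1 CPM in WT. The genotypes did not overlap, and the edgeR adjusted p was 0.1003. Xdh, xanthine dehydrogenase, averaged 256.6 ± 69.6 CPM in KO and 244.3 ± 15.6 CPM in WT, and Rac2 averaged 172.2 ± 103 and 246.9 ± 17.96 CPM in KO and WT, with overlap. Of 11 haem and iron genes edgeR called 0, and DESeq2 called 1 lower (3.6% of all identifiers). At an unadjusted p of 0.05, 2 were higher and 1 lower (12.8% and 9.79% of all identifiers). The ferritin genes Fth1 and Ftl1, which store iron released from haem, averaged 1698 ± 246 and 1394 ± 148 CPM in KO, against 1813 ± 282 and 1563 ± 363 CPM in WT, with overlap. Fth1, Ftl1, Gstm1 and Gpx4 have close copies or pseudogenes in the mouse genome, so their counts are uncertain. limma-voom called 0 genes in each of the redox, peroxisome, respiratory chain, adipocyte and macrophage lists.

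**Figure D5:**
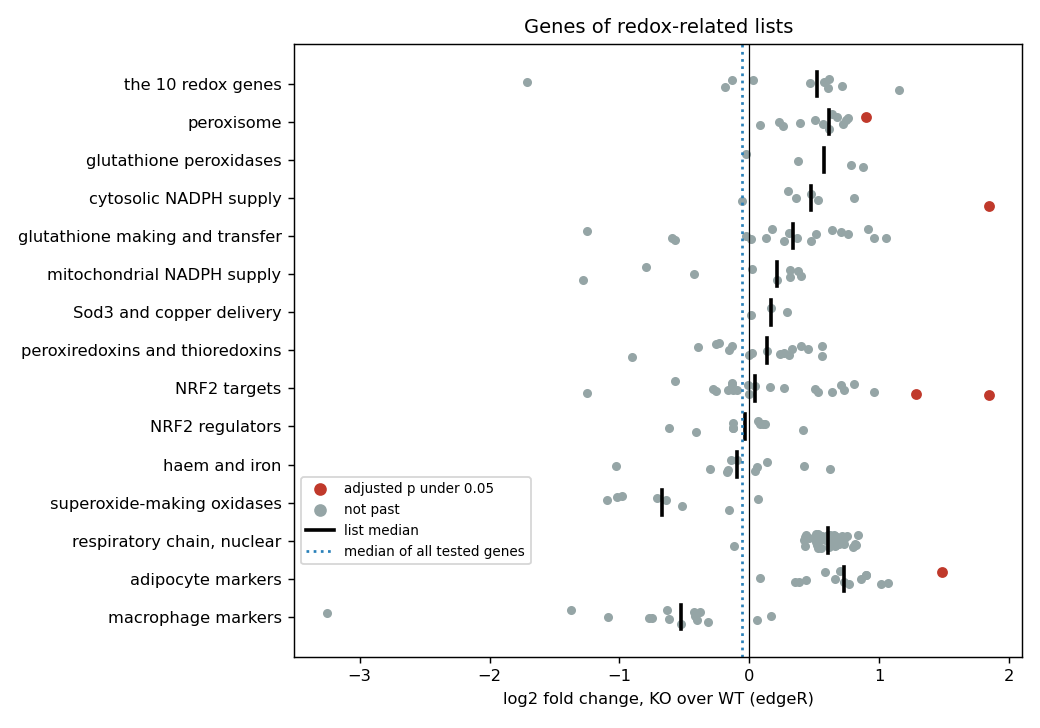
Each point is a tested gene, placed by its log2 fold change, KO over WT, from edgeR on 3 libraries per genotype; red points passed an adjusted p of 0.05, black bars are list medians and the dotted line is the median of all tested genes (-0.06). Peroxisome genes sit to the right of 0 with a median of 0.62, superoxide-making oxidases mostly to the left with a median of -0.68, and NRF2 targets on both sides.

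Per kilobase of the longest coding transcript in GENCODE M21, the levels of Sod1, Gpx1 and Cat were the highest of the 10 genes, at 525.4, 330.7 and 310.3 CPM per kilobase in KO and 345.1, 324.5 and 189.5 in WT. In KO, Gpx1 and Cat were closer to each other than the spread of either. Prdx3 had 116.1 in KO and 77.9 in WT, and Hmox1 had 34.1 in KO and 111.6 in WT, so that Prdx3 was above Hmox1 in KO and below it in WT. Gclc, Nnt (first identifier) and Txnrd2 had 9.93, 9.49 and 9.14 in KO, against 11.3, 4.26 and 5.96 in WT. Nqo1 was lowest, with 3.09 in KO and 3.38 in WT. Sod2, Cat, Gpx1, Nnt and Txnrd2 have coding transcripts of several lengths, and on its shortest one Sod2 would have 389.5 in KO and 281.6 in WT in place of 29.97 and 21.7, so its place in this order is not fixed. On the shortest transcripts Cat was highest, with 1041 in KO and 635.6 in WT.

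Single libraries decided which of the 10 genes passed. Without KO replicate 2, Sod1, Sod2, Cat, Prdx3 and Txnrd2 rose, with edgeR adjusted p-values of 0.00889, 0.0136, 0.00913, 0.00465 and 0.00913, in a fit that called 14.5% of all identifiers as higher. Without WT replicate 3, Hmox1 fell as the only one of the 10. That fit called 1.38% of all identifiers as lower. Without KO replicate 1, KO replicate 3, WT replicate 1 or WT replicate 2, 0 of the 10 passed, in fits that called 0.006%, 0.018%, 0.006% and 0.006% of all identifiers. With no filter on low counts 4 of the 10 rose (2.8% of all identifiers higher), and with the replicate number as a block 3 rose (4.74% higher). At an adjusted p of 0.10 the fit on 6 libraries counted 3 higher and 1 lower, against 5.52% and 2.75% of all identifiers. Directions moved less: the log2 fold changes of Nnt, Sod1, Sod2, Cat, Prdx3, Txnrd2, Hmox1 and Gclc kept their sign in all 16 alternative fits, which reuse the same libraries.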

How the data were processed

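The authors deposited unscaled estimated counts per Ensembl gene, with 1 column per iWAT library; between 9.53% and 11.1% of a library's values were fractional. Libraries were made with a stranded poly(A) kit, per the labels' protocols. The submitters' processing notes name fastp, featureCounts, GRCm38 and GRCm39 for the series without saying which apply to iWAT, and which program made the estimated counts was not given in the sources used here.

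Estimated counts were rounded and tested with edgeR 4.0.16 (R 4.3.3): TMM scaling, filterByExpr on genotype, robust quasi-likelihood F-test, two-sided, Benjamini-Hochberg over 16656 identifiers at 0.05. Standard errors are the log2 fold change over the square root of F. CPM use unrounded estimated counts and TMM library sizes; 3 counts are 0.147 to 0.167 CPM per library total. Symbols from a reference table of Ensembl gene names matched 26372 of 33200 identifiers. Alternatives were DESeq2 1.42.0, limma-voom (limma 3.58.1), other scalings and filters, a replicate block, summed Nnt identifiers and leaving out each library. Tests were checked on simulated counts drawn with edgeR's dispersions. Which of edgeR, DESeq2 and limma-voom is nearer the truth for these libraries was not tested. No 2 libraries were identical. The labels say only that replicates are biological, so p-values measure the spread between these libraries.

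The 10 genes and all lists were chosen with earlier results of these data known. The text names the 10, Nrep and, per list, at most 4 genes that passed with the smallest adjusted p, or else the 2 of highest mean CPM; other names are marked where they appear, and not every gene this rule allows is described.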

Additional observations from a re-analysis of the deposited data

How the results depend on the processing

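The count of genes past the test, 171 (144 higher, 27 lower), was 1823 (1223 and 600) in DESeq2, 16 (15 and 1) in limma-voom, 1370 (928 and 442) with no filter, 1225 (790 and 435) with the replicate block, 1378 (920 and 458) at an adjusted p of 0.10, and 178 (129 and 49) under library totals alone. Without 1 library the totals ran from 1 to 4221, with 0 to 2410 genes higher and 1 to 1811 lower; the extremes were without KO replicate 2 (4221) and without KO replicate 1 or a WT replicate 1 or 2 (1). Of the 10 redox genes, 0 passed, against 6 in DESeq2, 4 with no filter, 3 with the replicate block (Nnt, Sod1 and Txnrd2), 4 at an adjusted p of 0.10 and 0 to 5 without 1 library. Of 109 other redox, NRF2, haem and peroxisome genes, 3 passed, against 29 in DESeq2, 0 in limma-voom, 26 with no filter, 23 with the replicate block, 20 at an adjusted p of 0.10 and 0 to 55 without 1 library. The alternatives for these 109 genes were chosen after seeing the data. The cause of these shifts was not tested.

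Nnt passed at a log2 fold change of 1.19 in DESeq2 and 1.22 with the replicate block (adjusted p = 0.0320). The labels do not say whether libraries with the same replicate number belong together. Same-numbered libraries had correlations of deviations of -0.0077, 0.196 and 0.105. KO replicates 2 and 3 correlated best with the WT library of the same number, and KO replicate 1 with WT replicate 3 (0.139). Gpx1 changed sign under library totals alone (-0.12), without KO replicate 3 (-0.17) and without WT replicate 1 (-0.07), with -0.17 to 0.19 over fits without 1 library; Nqo1 did so without KO replicate 2 (0.05), with -0.31 to 0.05. Under library totals alone all tested genes had a median of -0.19, against -0.06. Nnt, Sod1, Sod2, Cat, Prdx3 and Txnrd2 then had log2 fold changes of 1.01, 0.46, 0.32, 0.56, 0.43 and 0.47. Hmox1, Gclc and Nqo1 had -1.85, -0.32 and -0.28. The TMM factors were 0.9202, 1.034 and 0.9109 in KO replicates 1, 2 and 3, and 1.048, 1.054 and 1.045 in WT. Of 160 alternative values of the 10 genes, 137 kept their direction and side of the threshold, 19 newly passed and 4 changed sign.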
